A study of Mus musculus with 8 samples.

Results

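The 10 genes described here encode the structural proteins of caveolae, chosen by name from the count table of whole mouse mammary glands: the caveolins Cav1, Cav2 and Cav3, the cavins Cavin1, Cavin2, Cavin3 and Cavin4, and the neck and membrane-bending proteins Ehd2, Pacsin2 and Pacsin3. All 10 were found among the 51789 genes of the table, and all 10 passed the filter on low counts, which left 17858 genes for testing. Female C57BL/6 mice had received 1 injection in the abdominal mammary gland of small extracellular vesicles (sEVs), and the gland was sequenced 6 weeks later. The tumor sEVs came from mouse mammary adenocarcinoma cells kept in normoxia (sEVNORM, n = 3) or hypoxia (sEVHYP, n = 2). The control, sEVCTRL (n = 3), was prepared from medium that had held no cells. The study names no donor line where it describes this sequencing. AT3, the metastatic line of the experiments before it, is inferred here. On that reading all vesicles of the tumor groups came from 1 cell line. The labels give tissue and treatment only, and the study describes its replicates as animals. The comparisons ask whether vesicles of hypoxic tumor cells changed the gland in a way that those of normoxic cells or control medium did not.

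Caveolae are flask-shaped pits of the plasma membrane that are abundant in adipocytes, endothelium, smooth muscle and skeletal muscle, where they buffer membrane tension and hold receptors and lipid transporters. Caveolins insert into the inner leaflet, cavins form a coat around them, and EHD2 and the PACSIN proteins shape and hold the neck. CAV1, CAV2, CAVIN1 and CAVIN2 are used in many cell types, whereas CAV3 and CAVIN4 (also known as MURC) belong to striated muscle. A whole gland holds fat, vessels, epithelium and stroma, and may hold the muscle that lies under it, so in these bulk samples fewer cells of a type and less RNA per cell cannot be told apart.

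The sequences before the start sites are shown for Cavin4 and Cav3, the muscle members with the widest spread between libraries, and for Cav1, the most abundant member. Each run is the 250 bases upstream of the first RefSeq start on GRCm38.p6, from 5′ to 3′ on the plus strand. Capitals mark E-boxes (CANNTG), the letters that myogenic transcription factors and many other factors can bind. The runs are chr4:48663264-48663513 for Cavin4, chr6:112459255-112459504 for Cav3 and chr6:17306085-17306334 for Cav1.
Cavin4: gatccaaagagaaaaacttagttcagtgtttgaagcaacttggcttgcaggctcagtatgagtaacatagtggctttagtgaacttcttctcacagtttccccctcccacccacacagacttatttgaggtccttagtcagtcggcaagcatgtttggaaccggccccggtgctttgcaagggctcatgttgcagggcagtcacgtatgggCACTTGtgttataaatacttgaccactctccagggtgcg
Cav3: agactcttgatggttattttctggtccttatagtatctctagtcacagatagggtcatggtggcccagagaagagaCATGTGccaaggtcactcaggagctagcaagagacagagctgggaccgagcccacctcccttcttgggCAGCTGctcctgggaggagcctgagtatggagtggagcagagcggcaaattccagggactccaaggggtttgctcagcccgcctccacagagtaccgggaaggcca
Cav1: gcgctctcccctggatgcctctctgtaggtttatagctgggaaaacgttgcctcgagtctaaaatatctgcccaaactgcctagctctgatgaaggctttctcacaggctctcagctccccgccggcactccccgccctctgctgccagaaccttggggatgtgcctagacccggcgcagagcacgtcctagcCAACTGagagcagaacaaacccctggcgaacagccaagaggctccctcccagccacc

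Motifs were counted on both strands in windows from 250 bases before to 50 bases after the start, of which 32851 were searched. The E-box was found in 72.3% of all windows and in each of these 3. The Cav3 window held 2 E-boxes, 1 of which was CAGCTG, a form that 16.3% of all windows held. The Cavin4 window held 1 E-box, 1 TATAAA and 1 ACGTG, the core of hypoxia response elements. The first Cav1 window held 1 of each as well. The TATAAA of Cavin4 is on the strand shown and near the start, whereas that of Cav1 is on the opposite strand and far upstream. TATAAA was in 13.6% and ACGTG in 19.6% of all windows, and an ACGTG preceded by C also forms an E-box. CATTCCT, the M-CAT element of muscle genes, was in 5.36% of all windows and in neither the Cavin4 nor the Cav3 window. GCGTG, the other core searched, was in 32.4% of all windows and once in that of Cav3. These matches describe letters and do not show binding. RefSeq windows were matched for 9 of the 10 genes, without Cavin3.

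The libraries held 18194996 to 24622569 counts, and values are given as CPM, counts scaled to one library size with TMM, edgeR's factor for library composition. The 10 genes together took 0.232% to 0.444% of the counts of a library. No pair of libraries agreed within sampling noise (chi-square per degree of freedom of 27.6 or more). Markers of skeletal muscle set libraries apart. The summed CPM of 20 muscle markers, of which the myosin heavy chain Myh4 was the highest, was 878, 12338 and 3116 in sEVCTRL, 4074, 41.5 and 2107 in sEVNORM, and 6328 and 17282 in sEVHYP. Myh2 and Tcap were at 0 in sEVNORM replicate 2, and none of the 20 was at 0 in any other library.

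Cav1, the main coat protein of caveolae outside muscle, was by far the most abundant member. Per kilobase of annotated exon, Cav1 was at 668 CPM as a mean over the 8 libraries. Its partner Cav2 followed at 123, and the lowest Cav1 library (425) lay above the highest Cav2 library (169). Cavin2, a cavin of adipocytes and endothelium, was at 78.3 CPM per kilobase, and Ehd2, the ATPase of the caveolar neck, at 61.4. Their ranges overlapped (54.0 to 102 and 41.8 to 89.1). Cavin3 was at 32.4 and Cavin1, the cavin required for caveola formation, at 28.1 CPM per kilobase, again with overlapping ranges (20.3 to 49.3 and 19.5 to 44.1). Pacsin2, the widely expressed PACSIN, was at 9.79 CPM per kilobase. Its range of 8.52 to 10.6 lay below that of Cavin1 and above that of Cavin4. The lowest levels were those of Cavin4 (2.06), Pacsin3 (0.835) and Cav3 (0.510), the members known from muscle, and their ranges overlapped. Pacsin3 was at 1.81 with the longest transcript as the length.

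**Figure D1:**
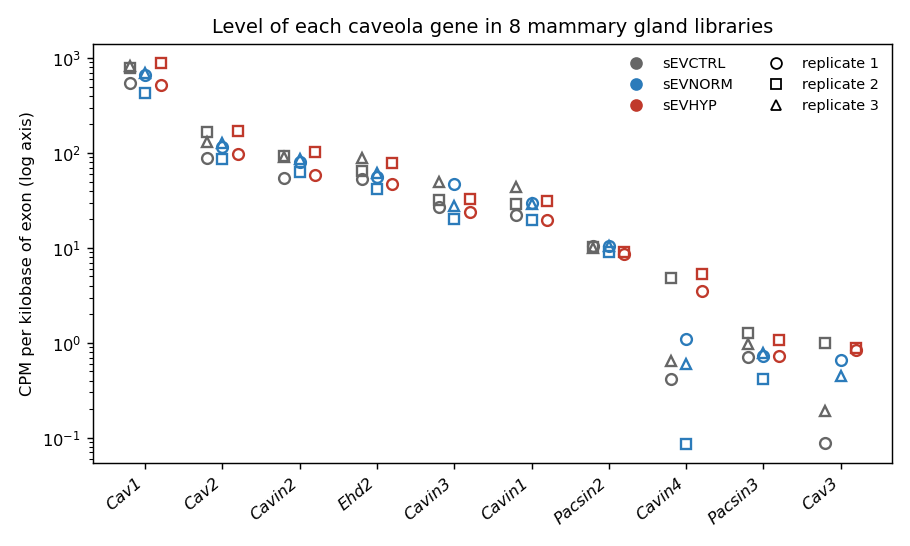
Level of each gene in CPM per kilobase of exon on a log axis, one point per library, colored by group and shaped by replicate number. Cav1 stood above all other genes in each of the 8 libraries, and the widest spread was that of Cavin4 and Cav3. The sEVNORM replicate 2 value of Cav3, a count of 0, has no place on a log axis and is not drawn.

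The abundant caveola genes were high or low together from gland to gland within each treatment. Cav1 was at 1874, 2692 and 2856 CPM in sEVCTRL, 2308, 1465 and 2398 in sEVNORM, and 1771 and 3052 in sEVHYP. Cav2 was at 295, 558 and 438 CPM in sEVCTRL, 390, 290 and 424 in sEVNORM, and 324 and 565 in sEVHYP. Each group held 1 low library for both genes, and the groups overlapped. Cavin1 was at 80.3, 104 and 158 CPM in sEVCTRL, 105, 70.4 and 105 in sEVNORM, and 69.9 and 112 in sEVHYP. Cavin2 was at 165, 283 and 276 CPM in sEVCTRL, 244, 191 and 262 in sEVNORM, and 181 and 311 in sEVHYP. The low libraries were those of Cav1 and Cav2. Cavin3, a regulatory cavin that binds protein kinase C, was at 44.3, 52.8 and 82.0 CPM in sEVCTRL, 78.0, 33.7 and 45.6 in sEVNORM, and 39.6 and 54.6 in sEVHYP. Ehd2 was at 274, 330 and 456 CPM in sEVCTRL, 288, 214 and 314 in sEVNORM, and 239 and 398 in sEVHYP.

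For all 6 of these genes the 3 lowest libraries were sEVCTRL replicate 1, sEVNORM replicate 2 and sEVHYP replicate 1, that is 1 library of each treatment. The highest library was sEVHYP replicate 2 for Cav1, Cav2 and Cavin2, and sEVCTRL replicate 3 for Cavin1, Cavin3 and Ehd2. The ratio of the highest to the lowest library was between 1.89 for Cavin2 and 2.43 for Cavin3. Relative to Cav1 within each library, the log2 ratio of Ehd2 ranged over 0.38, that of Cav2 over 0.44, that of Cavin2 over 0.57, that of Cavin1 over 0.59 and that of Cavin3 over 0.92. Cavin3 shares 374 exonic bases (22.5% of its exon length) with Gm45667 on the opposite strand, and since the strand setting of the counting is not stated in the sources used here, their reads cannot be told apart.

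**Figure D2:**
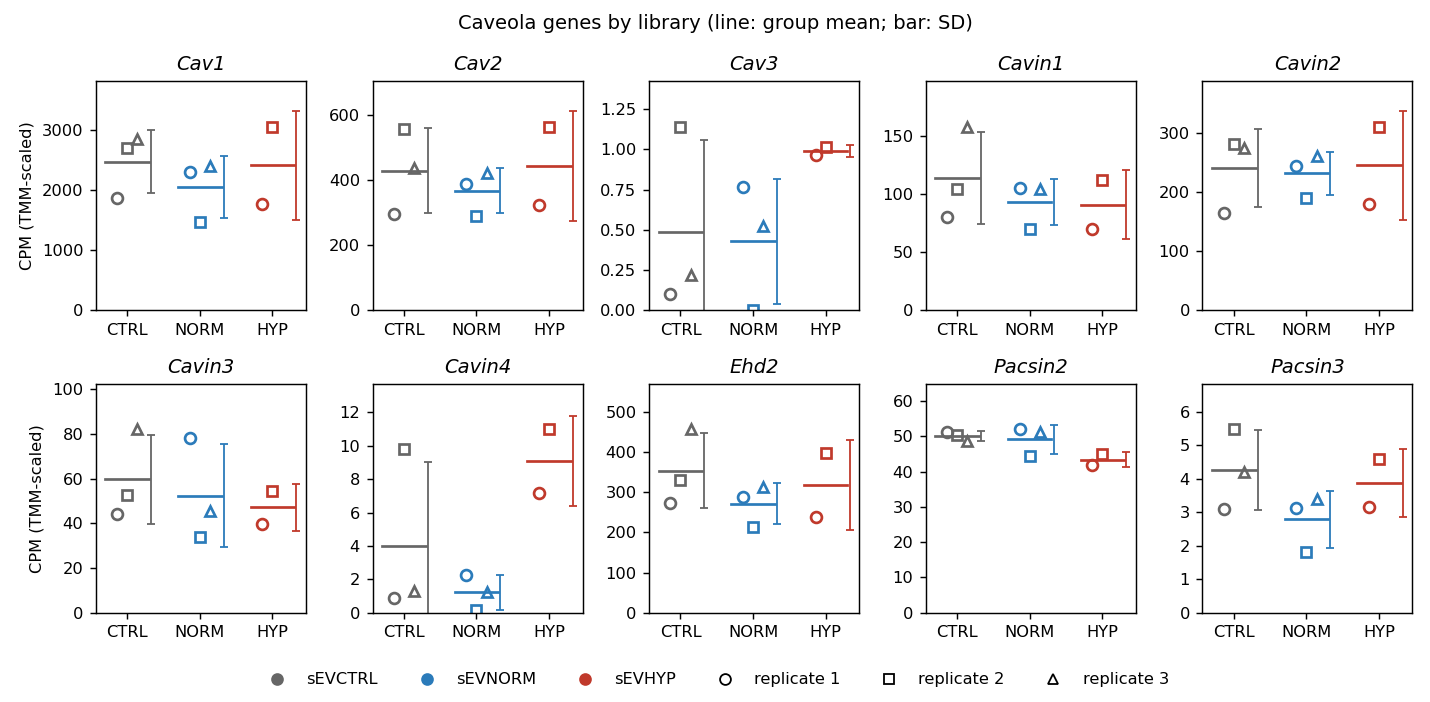
CPM of each gene in each library by treatment, on linear axes that start at 0, with a line at the group mean and a bar of 1 SD (n = 3, 3 and 2). The 6 abundant genes show 1 low library per treatment, Pacsin2 varies little, and Cavin4 is high in both sEVHYP libraries and in sEVCTRL replicate 2. SD bars that reach below 0 end at the axis.

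The same 3 libraries were the lowest for white adipocyte markers. The summed CPM of 13 adipocyte markers, of which the lipase gene Lpl was the highest, was 12256, 15454 and 18158 in sEVCTRL, 14522, 10013 and 15946 in sEVNORM, and 11247 and 18283 in sEVHYP, and none of the 13 was at 0. Cav1 was at 146 to 174 CPM for each 1000 CPM of these markers, a range of 1.19-fold, whereas Cav1 itself ranged over 2.08-fold. Over the 8 libraries, Ehd2 and the mean log2 CPM of the adipocyte markers had a Pearson r of 0.969 (adjusted P = 0.0032) and a Spearman rho of 0.929 (adjusted P = 0.013, exact permutation tests over 30 relations of 10 genes and 3 marker lists). The same measure gave r = 0.940 for Cav1 (rho 0.905, adjusted P = 0.0043 and 0.023, exact permutation tests), and r = 0.940 for Cavin1 (rho 0.952, adjusted P = 0.0043 and 0.011, exact permutation tests). Without the 2 libraries farthest from the median marker level, sEVCTRL replicate 3 and sEVNORM replicate 2, r was 0.927 for Ehd2, 0.911 for Cav1, 0.911 for Cavin1 and 0.491 for Cavin3. With 6 libraries none of the 30 relations had an adjusted P below 0.083 in the exact permutation tests. The few pairings of 6 libraries left these tests little room to pass over 30 relations, so the loss of the calls decides nothing. Of the other abundant genes, r with the adipocyte markers was 0.801 for Cavin2 (adjusted P = 0.042), 0.801 for Cavin3 (adjusted P = 0.042) and 0.746 for Cav2 (adjusted P = 0.054) by exact permutation tests. The rank relation passed for Cavin3 (rho 0.881, adjusted P = 0.031) but not for Cavin2 (rho 0.714, adjusted P = 0.10) or Cav2 (rho 0.786, adjusted P = 0.060) by exact permutation tests. With 14 endothelial markers, Ehd2 had r = 0.921 and rho 0.929 (adjusted P = 0.0088 and 0.013, exact permutation tests), and Cav1 r = 0.901 and rho 0.857 (adjusted P = 0.0088 and 0.040, exact permutation tests). Cavin1 had r = 0.953 with the endothelial markers, and its rank relation did not pass (rho 0.762, adjusted P = 0.0045 and 0.0735, exact permutation tests). Cavin2 (r = 0.792), Cavin3 (0.789) and Pacsin3 (0.776) also passed with these markers (adjusted P = 0.042 each, exact permutation tests). None of these passed by rank (adjusted P = 0.086, 0.060 and 0.060, exact permutation tests), and Cav2 passed by neither (r = 0.757, adjusted P = 0.054, exact permutation test). The summed CPM of the endothelial markers was 793 to 1029 in sEVCTRL, 753 to 958 in sEVNORM, and 722 and 923 in sEVHYP. The fat and endothelial lists were low in the same 3 libraries, so the relation to each cannot be told apart. The share of all genes tested with such relations was not counted, so they cannot be called particular to caveola genes.

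The 5 tested genes most like Cav1 over the 8 libraries, by Pearson r of log2 CPM, were Smoc2 (0.983), Inpp5a (0.981), Cd99l2 (0.978), Aoc3 (0.977) and Abhd14b (0.969). Smoc2 encodes a matricellular calcium-binding protein and Aoc3 an amine oxidase of the adipocyte surface that resides in caveolae.

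None of the 6 abundant genes passed the test in any of the 3 comparisons, which was edgeR's quasi-likelihood test at the unadjusted P of 0.05 that the study used as its threshold (adjusted P = 1.00 for each). Cav1 was at 2412 ± 905 CPM in sEVHYP (SD, n = 2), 2057 ± 515 in sEVNORM (SD, n = 3) and 2474 ± 526 in sEVCTRL (SD, n = 3). Its log2 fold change was 0.23 for sEVHYP against sEVNORM (95% interval -0.49 to 0.95) and -0.04 for sEVHYP against sEVCTRL (-0.76 to 0.69). Cavin1 was at -0.04 (-0.76 to 0.69) and -0.33 (-1.06 to 0.40) in these comparisons, and Ehd2 at 0.23 (-0.43 to 0.89) and -0.15 (-0.81 to 0.51). The signs turned under some settings. With the endothelial marker level as a covariate, Cav1 was at 0.38 and Cavin2 at 0.43 for sEVHYP against sEVCTRL, and both passed the unadjusted threshold (adjusted P = 0.54 and 0.55, edgeR). Under that setting 1603 of the 17858 genes tested passed, beside 438 without the covariate.

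Pacsin2 differed from the abundant genes in that it hardly varied. It was at 51.2, 50.4 and 48.6 CPM in sEVCTRL, 51.9, 44.4 and 51.1 in sEVNORM, and 41.8 and 44.9 in sEVHYP, a range of 1.24-fold. Both sEVHYP libraries lay below all 3 sEVCTRL libraries, which held for 6.08% of all genes tested. The log2 fold change was -0.21 (SE 0.14) and did not pass the test (adjusted P = 1.00, edgeR). Against sEVNORM it was -0.18 (SE 0.14), and the groups overlapped because sEVNORM replicate 2 lay below sEVHYP replicate 2.

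Cavin4 and Cav3 varied far more, and Pacsin3 ranged over 3.01-fold. Cav3, the caveolin of muscle fibers, had counts of 2, 25 and 4 in sEVCTRL, 19, 0 and 11 in sEVNORM, and 21 and 19 in sEVHYP, which is at most 1.14 CPM. With a count of 0, sEVNORM replicate 2 may still have held up to 3 by counting error alone. Cavin4, the cavin of striated muscle, was at 0.86, 9.80 and 1.31 CPM in sEVCTRL, 2.25, 0.18 and 1.23 in sEVNORM, and 7.19 and 10.97 in sEVHYP. In counts these were 17, 215 and 24, then 56, 4 and 26, then 157 and 205. Both genes were lowest in sEVNORM replicate 2, and sEVCTRL replicate 2 stood with the sEVHYP libraries. Pacsin3, a PACSIN known from muscle, was at 3.10, 5.47 and 4.21 CPM in sEVCTRL, 3.14, 1.82 and 3.41 in sEVNORM, and 3.16 and 4.6 in sEVHYP. Its lowest library was again sEVNORM replicate 2 and its highest sEVCTRL replicate 2. By log2 CPM, Pacsin3 had r = 0.888 with Cav1 and 0.868 with Cav2, beside 0.792 with Cavin4 and 0.729 with Cav3.

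The order of the 8 libraries by Cavin4 was also their order by the level of the skeletal muscle markers, taken as a mean of log2 CPM. Spearman's rho was 1.00 and Pearson's r 0.927 (adjusted P = 0.0015 and 0.00074, exact permutation tests). Cav3 gave r = 0.944 and rho 0.952 (adjusted P = 0.0015 and 0.011, exact permutation tests). Pacsin3 gave r = 0.876 and rho 0.786 (adjusted P = 0.023 and 0.060, exact permutation tests). Of the abundant genes, Cav1 (r = 0.756) and Cav2 (r = 0.741) also passed with the muscle markers (adjusted P = 0.042 each, exact permutation tests). Neither passed by rank (adjusted P = 0.17 and 0.060, exact permutation tests). Without sEVCTRL replicate 1 and sEVNORM replicate 2, the libraries farthest from the median, r was 0.973 for Cavin4 (adjusted P = 0.10), 0.843 for Cav3 (adjusted P = 0.10) and 0.578 for Pacsin3 (adjusted P = 0.50) by exact permutation tests. It was 0.174 for Cav1 and 0.532 for Cav2, so the relations of Pacsin3, Cav1 and Cav2 rested in part on those 2 libraries. With 6 libraries these tests had little room to pass. The share of all genes tested with such relations to the muscle markers was not counted either. For each 1000 CPM of muscle markers, Cavin4 was at 0.983, 0.795 and 0.421 CPM in sEVCTRL, 0.553, 4.27 and 0.584 in sEVNORM, and 1.14 and 0.635 in sEVHYP. The value of 4.27 rests on 4 counts. On this scale sEVHYP replicate 1 lay above all 3 sEVCTRL libraries and sEVHYP replicate 2 below sEVCTRL replicates 1 and 2. Both lay above sEVNORM replicates 1 and 3.

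**Figure D3:**
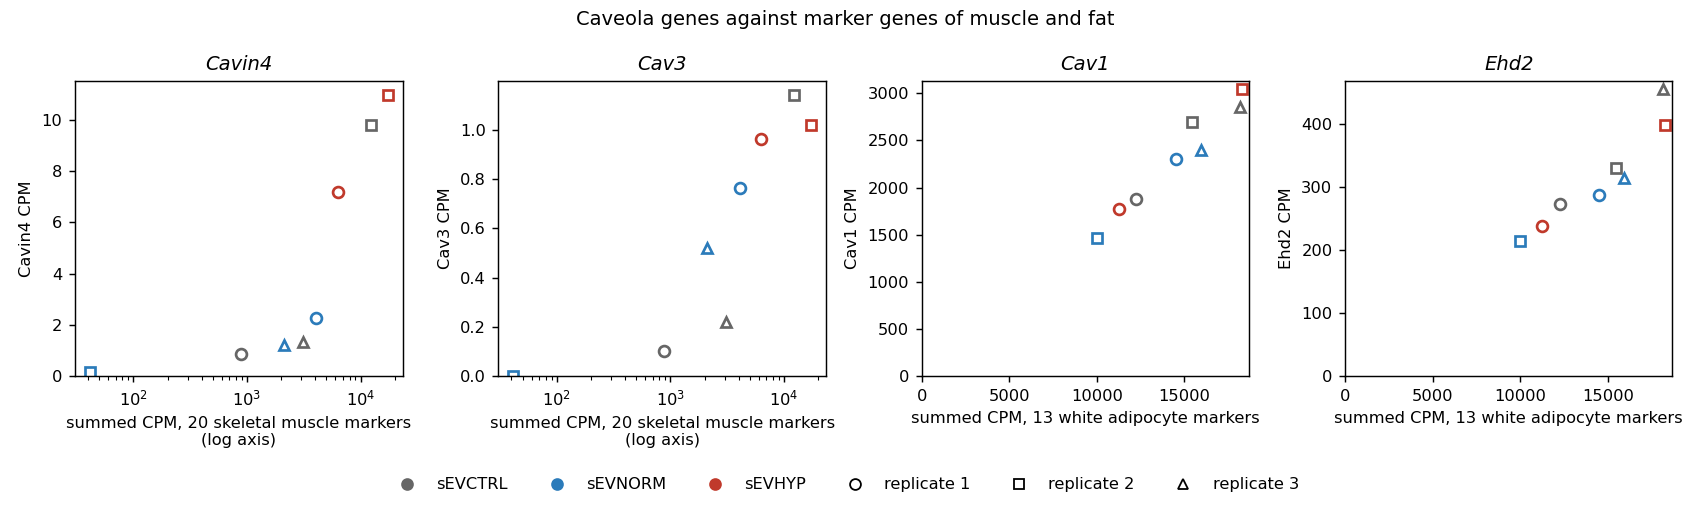
CPM of Cavin4 and Cav3 against the summed CPM of 20 skeletal muscle markers on a log axis, and of Cav1 and Ehd2 against the summed CPM of 13 white adipocyte markers on a linear axis, one point per library. Cavin4 is higher where muscle markers are higher, in an order that mixes the 3 treatments, and Cav1 and Ehd2 are higher where fat markers are.

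The 5 tested genes most like Cav3 were Ppp1r27 (r = 0.997), Ckmt2 (0.997), Klhl40 (0.988), Dusp13 (0.987) and Kcnmb1 (0.986). Ckmt2 encodes the mitochondrial creatine kinase of striated muscle and Klhl40 a protein of the sarcomere. Those most like Cavin4 were Ctxn3 (0.995), Sel1l3 (0.991), Rbfox1 (0.990), Acsl6 (0.989) and Ank1 (0.989). Rbfox1 encodes a splicing factor of muscle and brain.

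Of the 10 genes, Cavin4 alone passed the test for sEVHYP against sEVNORM, where 3.95% of all genes tested did. The sEVHYP libraries averaged 9.08 ± 2.67 CPM (SD, n = 2) and the sEVNORM libraries 1.22 ± 1.04 CPM (SD, n = 3). The difference was 2.88 on the log2 scale (SE 1.05, adjusted P = 1.00, edgeR). Both sEVHYP libraries lay above all 3 sEVNORM libraries, as they did for Cav3 and for 12.3% of all genes tested. Cav3 averaged 0.990 ± 0.039 CPM in sEVHYP (SD, n = 2) and 0.428 ± 0.390 CPM in sEVNORM (SD, n = 3). Its log2 fold change was 1.19 (SE 1.16) and did not pass the test. Cavin4 is among the genes that the study displayed from these libraries, so its change is not independent evidence. The muscle markers moved the same way: 19 of 20 had a positive log2 fold change, with a median of 2.39 beside -0.02 over all genes tested, and 0 of 20 passed the test. Of the other lists, all 10 smooth muscle and pericyte markers were positive (median 0.35, 2 of which passed), as were all 6 brown adipocyte markers tested (median 1.06, 1 of which passed). With the muscle marker level as a covariate, Cavin4 was at 1.21 (SE 0.51) and passed the unadjusted threshold (adjusted P = 0.9999, edgeR). Cav3 was at -0.56 and did not pass. In that fit 842 of the 17858 genes tested passed, beside 706 without the covariate. The muscle marker level was lowest in sEVNORM replicate 2 (summed CPM 41.5), where Cavin4 had 4 counts. Cavin4 no longer passed without sEVNORM replicate 3 (log2 fold change 2.88) or without sEVHYP replicate 2 (2.53). With replicate number as a block in the model, Cavin4 was at 2.31 (SE 1.24) and did not pass. Over the 10 genes, with no covariate or block, 7 had a positive and 3 a negative log2 fold change. Their median was 0.23, where 47% of all genes tested were positive.

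For sEVHYP against sEVCTRL, 0 of the 10 genes passed the test, where 2.45% of all genes tested did. Cavin4 was at 3.99 ± 5.04 CPM in sEVCTRL (SD, n = 3), and its log2 fold change was 1.17 (SE 1.01, adjusted P = 1.00, edgeR). The groups overlapped through sEVCTRL replicate 2 (9.80 CPM), the control library with the most muscle marker RNA (summed CPM 12338). Without that library the log2 fold change was 3.06 and passed the unadjusted threshold (adjusted P = 0.56, edgeR). In that fit 1472 of 17701 genes tested passed, beside 438 of 17858 with all libraries. The muscle markers had a positive value for 18 of 20, with a median of 1.02, and 0 of 20 passed the test. All 14 endothelial markers had a negative value, with a median of -0.22, and 1 passed. The part of either list in the values of the 10 genes was not tested beyond the covariates given. Of the 10 genes 4 had a positive and 6 a negative log2 fold change, with a median of -0.09, where 47.5% of all genes tested were positive.

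For sEVNORM against sEVCTRL, 0 of the 10 passed, where 1.62% of all genes tested did. All 10 had a negative log2 fold change, from -0.03 for Pacsin2 to -1.71 for Cavin4 (SE 0.98, adjusted P = 1.00, edgeR), with a median of -0.25, where 49.8% of all genes tested were positive. The 10 genes were measured in the same libraries and varied together, so their signs are not independent. All 20 muscle markers were negative too (median -1.40), as were 12 of 13 adipocyte markers (median -0.20), and 0 in either list passed the test. The 14 endothelial markers (median -0.21, 1 of which passed) and the 10 smooth muscle and pericyte markers (median -0.16, 0 of which passed) were negative as well. Without sEVCTRL replicate 2, Cavin4 was at 0.18, and without sEVCTRL replicate 1 it was at -2.20 and passed the unadjusted threshold (adjusted P = 0.98, edgeR). In the latter fit 568 of 17774 genes tested passed, beside 290 of 17858 with all libraries. These 3 comparisons share libraries. Of the 17858 genes tested, 0 had an adjusted P under 0.05 by edgeR in each of them, with 706, 438 and 290 genes at an unadjusted P under 0.05. DESeq2 gave 16, 4 and 2 genes with an adjusted P under 0.05 on all 8 libraries, and 83, 14 and 3 when fitted to only the groups compared. Cavin4 was among the 83. The study describes DESeq2 tests of 2 groups and does not say which libraries each fit held.

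**Figure D4:**
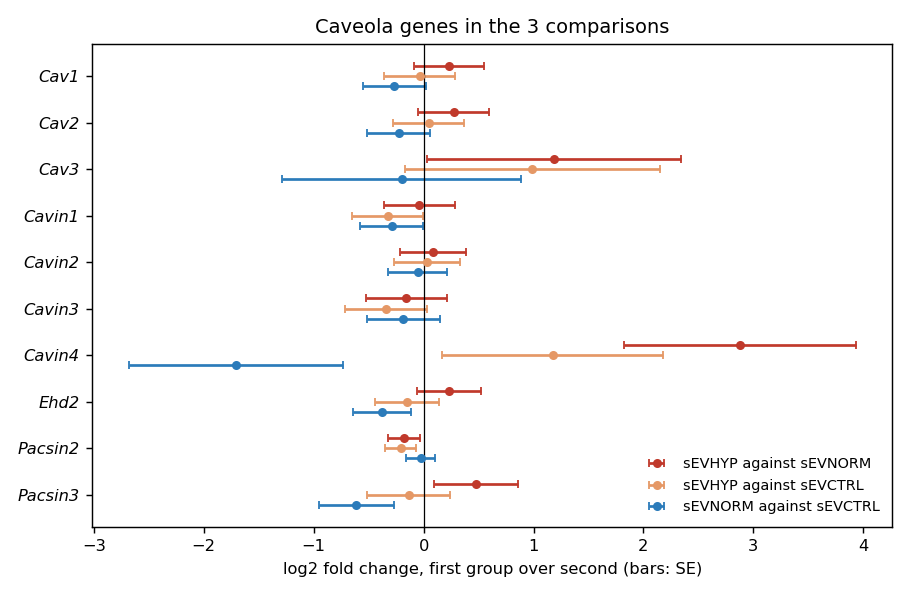
Log2 fold change of each gene (point) with its SE (bar) in the 3 comparisons, by edgeR. Cavin4 for sEVHYP against sEVNORM, at 2.88, lies farthest from 0, all values for sEVNORM against sEVCTRL are negative, and the bars of Cav3 and Cavin4 are the widest.

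A further list held 24 genes chosen as partners or relatives of caveola proteins, and all of them were tested. Of these, 2 passed as higher (2.25% of all genes) and 0 as lower in sEVHYP than in sEVNORM. Against sEVCTRL, 0 passed as higher and 1 as lower (1.06% of all genes) in sEVHYP. None passed for sEVNORM against sEVCTRL. Nos3, the nitric oxide synthase of endothelium that CAV1 binds, was at 12.7 and 16.7 CPM in sEVHYP and 9.53, 9.49 and 9.51 in sEVNORM, with 11.6, 9.53 and 14.2 in sEVCTRL. Both sEVHYP libraries lay above all 3 sEVNORM libraries, which held for 12.3% of all genes tested. The log2 fold change of Nos3 was 0.63 (SE 0.22, adjusted P = 1.00, edgeR), and without sEVHYP replicate 2 it was at 0.41 and did not pass. Of the 14 endothelial markers 7 had a positive log2 fold change, with a median of 0.02, and 1 passed as lower. Trim72, a membrane repair protein of striated muscle that associates with CAV3, was at 1.05 and 1.98 CPM in sEVHYP, 0.32, 0.27 and 0.33 in sEVNORM, and 0.31, 1.69 and 0.16 in sEVCTRL. Its log2 fold change against sEVNORM was 2.28 (SE 0.87, adjusted P = 1.00, edgeR), and with the muscle marker level as a covariate it was 1.39 and did not pass. Nor did it pass without sEVHYP replicate 2 (1.76) or without any 1 of the 3 sEVNORM libraries (2.19 to 2.34).

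Ehd3, a relative of Ehd2 that works in endosomal recycling, was at 27.1 and 26.1 CPM in sEVHYP and 44.0, 35.3 and 43.2 in sEVCTRL, with 36.4, 34.0 and 28.4 in sEVNORM. It was lower in both sEVHYP libraries than in all others. Both lay below all sEVCTRL libraries for 6.08% of all genes tested, and the share below all others was not counted. The log2 fold change of Ehd3 was -0.62 against sEVCTRL (SE 0.18, adjusted P = 1.00, edgeR) and -0.31 against sEVNORM (SE 0.18), which did not pass. The first passed at an unadjusted P under 0.05 with each library left out in turn. The 3 partners with the highest mean level per kilobase were Cd36, the fatty acid transporter (1046 CPM per kilobase), Aoc3 (156) and Abca1, a cholesterol exporter (44.1). Lipe, the hormone-sensitive lipase, was close behind at 43.3, and with the longest transcript as the length it was at 68.6 and Abca1 at 44.5. Cd36 ranged from 2673 to 4551 CPM and Aoc3 from 422 to 1016 CPM. Their log2 fold changes for sEVHYP against sEVNORM were -0.02 (SE 0.31) for Cd36, 0.11 (SE 0.37) for Aoc3 and -0.08 (SE 0.23) for Abca1. The median over the 24 partners was 0.06 for sEVHYP against sEVNORM, -0.04 for sEVHYP against sEVCTRL and -0.12 for sEVNORM against sEVCTRL.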

How the data were processed

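The authors aligned reads of polyA RNA libraries (Lexogen SENSE mRNA-Seq V2, 300 ng of RNA, 13 PCR cycles) with STAR to mm10 and used RSEM 1.2.12 to estimate reads per gene of Ensembl GRCm38.89. The deposited counts are whole numbers and carry no scaling, and how RSEM's estimates were rounded is not given in the sources used here. Groups come from the labels, and vesicle names and weeks from the study's text. Symbols were matched for 51596 genes, and exon lengths are unions of annotated exons. The counts went into edgeR 4.0.16 (R 4.3.3) with filterByExpr at its minimum count of 10, TMM factors and the two-sided quasi-likelihood F-test (5 residual and 4.08 prior degrees of freedom), as 1 model of the 3 groups. P values were adjusted by Benjamini-Hochberg across every tested gene. For log2 CPM the prior count was 2. The procedure was tested on simulated data. Alternatives were DESeq2 1.42.0, other filters and factors, a replicate block, marker levels as covariates and each library left out. The genes and lists were chosen with earlier results of these data known. Named in the text are the 10 members, partner genes with an unadjusted P under 0.05 in any comparison, the 3 partners with the highest mean level per kilobase, and the 5 genes most like Cav1, Cav3 and Cavin4. RefSeq sequences are of GRCm38.p6.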

Additional observations from a re-analysis of the deposited data

How the results depend on the processing

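The call of Cavin4 for sEVHYP against sEVNORM held with DESeq2's size factors, DESeq2 on all 8 libraries (adjusted P = 1.00) or on the groups compared (adjusted P = 0.027), edgeR on the groups compared, no filter, and each marker covariate. With at least 10 counts in every library, 8 of the 10 genes were left, without Cav3 and Cavin4, and 0 were called. With no filter, 1 gene was called for sEVNORM against sEVCTRL (Cavin4, -1.70), and with the endothelium covariate 2 for sEVHYP against sEVCTRL. Under these settings 533 of 27246 and 1603 of 17858 genes tested were called. With 1 library left out, 0 to 1 gene was called in each comparison. A fit with 1 sEVHYP library assumes that it varies like the other groups. The labels do not say whether replicate numbers pair the libraries. Deviations of same-numbered libraries from their group means had correlations from -0.42 to 0.37. These cannot decide it, since the deviations of the 2 sEVHYP libraries mirror each other. With the replicate block, 0 genes were called for sEVHYP against sEVNORM, as Cavin4, at 2.31, lost its call, Trim72 lost its call too, at 1.81, and signs turned for Cavin1 in that comparison (0.11) and for Cav1 (0.066) and Ehd2 (0.013) against sEVCTRL.

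The other log2 fold changes that turned sign were not called in either fit except Cav1 under the endothelium covariate, and the cause was not tested. With the muscle covariate these were Cav1 (-0.18), Cav2 (-0.15), Cav3 (-0.56), Cavin2 (-0.27), Ehd2 (-0.046) and Pacsin3 (-0.031) for sEVHYP against sEVNORM, Cav2 (-0.12) and Cavin2 (-0.12) for sEVHYP against sEVCTRL, and Cav2 (0.026), Cav3 (0.88), Cavin2 (0.15) and Pacsin2 (0.019) for sEVNORM against sEVCTRL. With that covariate and without sEVNORM replicate 2, an alternative added after seeing the data, Cavin4 was at 1.08 and was called, and signs turned for Cav1 (-0.21), Cav2 (-0.26), Cav3 (-0.51), Cavin2 (-0.37), Ehd2 (-0.048) and Pacsin3 (-0.076), for Cav2 (-0.33) and Cavin2 (-0.30), and for Cav3 (0.88), Cavin2 (0.068), Cavin3 (0.020) and Pacsin2 (0.040), in the same order of comparisons. With the endothelium covariate these were Cavin1 (0.023), then Cav1 (0.38), Cavin1 (0.15), Cavin3 (0.14), Ehd2 (0.24) and Pacsin3 (0.28), then Cav1 (0.099), Cav2 (0.13), Cav3 (0.44), Cavin1 (0.13), Cavin2 (0.32), Cavin3 (0.20) and Pacsin2 (0.016). With the adipocyte covariate these were Cavin2 (-0.082) for sEVHYP against sEVNORM, and Cavin2 (0.14) and Cavin3 (0.061) for sEVNORM against sEVCTRL.

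With each library left out in turn, the log2 fold changes that crossed 0 were Cav1 (-0.23 to 0.57), Cav2 (-0.19 to 0.62), Cavin1 (-0.43 to 0.27), Cavin2 (-0.37 to 0.42), Cavin3 (-0.42 to 0.25) and Ehd2 (-0.20 to 0.55) for sEVHYP against sEVNORM, Cav1 (-0.50 to 0.31), Cav2 (-0.42 to 0.40), Cavin2 (-0.43 to 0.37), Ehd2 (-0.58 to 0.17) and Pacsin3 (-0.44 to 0.11) for sEVHYP against sEVCTRL, and Cav2 (-0.46 to 0.0064), Cav3 (-0.93 to 1.41), Cavin1 (-0.51 to 0.019), Cavin2 (-0.29 to 0.075), Cavin3 (-0.59 to 0.11), Cavin4 (-2.52 to 0.18) and Pacsin2 (-0.070 to 0.040) for sEVNORM against sEVCTRL.

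Levels per kilobase with the longest transcript as the length were 838 for Cav1, 13.0 for Pacsin2 and 1.81 for Pacsin3. Without the 2 libraries farthest from the median, no relation had an adjusted P under 0.05 by exact permutation tests, which 6 libraries left little room for. Then r with the muscle markers was 0.17 for Cav1, 0.53 for Cav2, 0.84 for Cav3, 0.97 for Cavin4, 0.58 for Pacsin3, and negative for Cavin1 (-0.34), Cavin3 (-0.30), Ehd2 (-0.084) and Pacsin2 (-0.37). With the adipocyte markers it was 0.91 for Cav1, 0.91 for Cavin1, 0.87 for Cavin2, 0.49 for Cavin3 and 0.93 for Ehd2. With the endothelial markers it was 0.74 for Cav1, 0.91 for Cavin1, 0.67 for Cavin2, 0.55 for Cavin3, 0.83 for Ehd2, -0.29 for Pacsin2 and 0.64 for Pacsin3.

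Counts of all genes with an unadjusted P under 0.05 moved by over 1.5 times under some settings. For sEVHYP against sEVNORM they were 1541 with the endothelium covariate, 1195 with DESeq2 on the groups compared, 1102 without a filter and 415 without sEVHYP replicate 2, beside 706. For sEVHYP against sEVCTRL they were 1603 with the endothelium covariate, 1472 without sEVCTRL replicate 2 and 672 without a filter, beside 438. For sEVNORM against sEVCTRL they were 533 without a filter, 451 with the muscle covariate, 1018 without sEVCTRL replicate 2 and 568 without sEVCTRL replicate 1, beside 290.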
